A study of Mus musculus with 40 samples.

Results

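Brown adipose tissue of 15 mice given blocking antibodies against Jag1 and Jag2, and no thyroid hormone, was followed over time by bulk RNA sequencing. These Jag antibody mice are 15 of the 40 mice profiled and were chosen by their labels alone: 5 were collected at 15 h, 5 at 5 d and 5 at 7 d after a single dose. They were compared with each other, 5 d against 15 h and 7 d against 5 d, and 7 d against 15 h shows where the period ended. The comparisons share mice, so their values are set side by side and no overlap between them is read. All 40 mice were male C57BL/6 animals from Jackson Laboratories. The labels' protocol gives an age of 10 to 14 weeks and the series' design text gives 10 to 12 weeks. The Jag antibody mice received 20 mg/kg of each antibody in 1 intraperitoneal injection. The 15 control antibody mice, collected at the same times, received 40 mg/kg of an isotype antibody against ragweed. They serve as the reference for change over time without the Jag antibodies. The other 10 mice received thyroid hormone and entered only the estimate of spread between mice. Mice are named below by the title numbers 6 to 10. A number names a mouse within its group, so mouse 6 at 15 h, 5 d and 7 d are different animals. The hour of collection, feeding state and collection batch are not given in the sources used here, so time after the dose cannot be told apart from them. No mouse was collected before the dose.

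Notch receptors are activated by ligands of the Jagged and Delta-like families on neighbouring cells, and the cleaved receptor then enters the nucleus and switches on genes such as Hes1 and Hey1. In adipose tissue the pathway is best known in blood vessels, where Dll4 and Notch4 are endothelial, and in progenitor cells. Brown adipocytes burn fatty acids for heat through Ucp1 and refill their lipid stores by making fatty acids from glucose. The antibodies bind the ligand proteins, so the Jag1 and Jag2 transcripts do not check the labels. Jag1 lay between 18.0 and 39.8 CPM (library-scaled counts) in all 15 mice and Jag2 between 5.63 and 21.5 CPM. Neither passed the test between any of the 3 times. Ucp1, the defining transcript of brown fat, lay between 2044 and 14050 CPM in every mouse.

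The 15 libraries held 14981107 to 35320409 counts. Mouse 6 at 7 d stood apart: in it, 8 skeletal muscle markers took 5.36% of all counts. Its muscle score, the mean log2 CPM of these markers, was 12.3, against 0.37 to 6.18 in the other 7 d mice. At 15 h the muscle scores were 7.95, 7.42, -1.74, -0.66 and 6.32 in mice 6 to 10, and at 5 d they lay between -2.69 and 2.20. By edgeR none of the 8 markers was called in any of the 3 comparisons defined below, with a median log2 change of -6.04 from 15 h to 5 d (4 at an unadjusted p under 0.05) and 9.75 from 5 d to 7 d (all 8). DESeq2 called all 8 lower in the first interval and higher in the second. The summed level of the 8 markers was 2.29 to 2301 CPM at 15 h, 0.878 to 43.9 CPM at 5 d and 13.9 to 51059 CPM at 7 d. Muscle RNA was thus unevenly spread over the times, and its part in the results was not tested beyond the repeats given beside them. Mitochondrial transcripts took a median of 24.4% of counts at 15 h, 17.0% at 5 d and 18.4% at 7 d. Within a time the libraries also differed in how log2 CPM tilted with gene length, least at 15 h (slopes of 0.0601 to 0.106) and most at 5 d (-0.244 to 0.215). In bulk tissue, fewer cells of a type and less RNA per cell cannot be told apart.

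**Figure D1:**
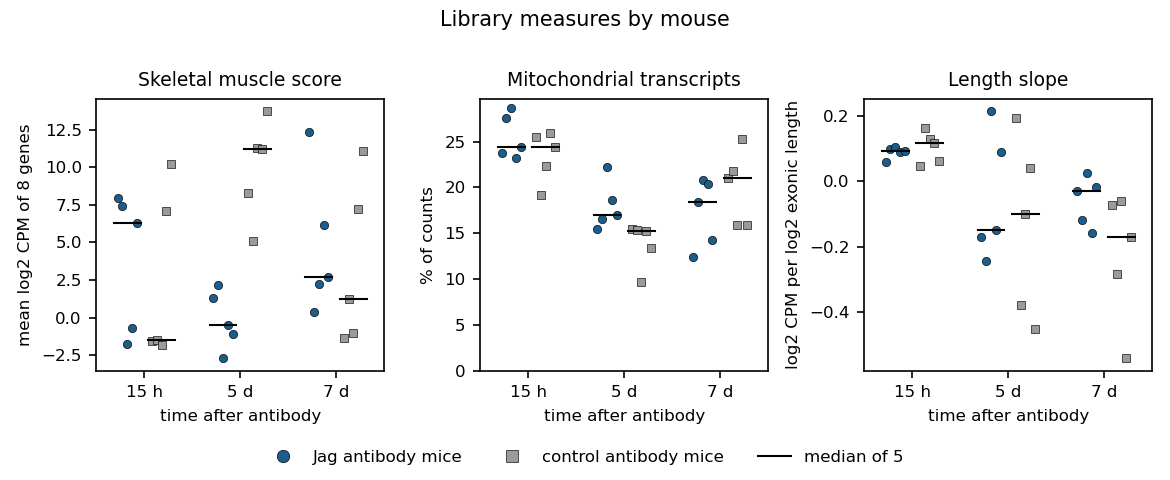
Muscle score (mean log2 CPM of 8 markers), share of mitochondrial transcripts (percent of counts) and length slope of each library, by time after the dose. Circles are Jag antibody mice, squares control antibody mice and lines medians of 5; the highest Jag antibody muscle score, 12.3, belongs to mouse 6 at 7 d, and the mitochondrial share is highest at 15 h.

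Many genes differed between the times. Of 17079 genes tested with edgeR's quasi-likelihood test, 1404 were higher and 1066 lower at 5 d than at 15 h at a Benjamini-Hochberg adjusted p under 0.05, which is 8.22% and 6.24% of those tested; genes below this threshold are said to be called. From 5 d to 7 d, 343 were higher (2.01%) and 219 lower (1.28%). Between 15 h and 7 d the counts were 1771 higher (10.4%) and 1355 lower (7.93%). Among the called genes, 1506 had no overlap between the 5 mice at 15 h and the 5 at 5 d (8.82% of genes tested), and 327 had none between 5 d and 7 d (1.91%). The balance of directions from 15 h to 5 d turned with the method: DESeq2 gave 1514 higher and 1778 lower, RLE size factors 1157 and 1252, limma on log2(FPKM + 1) 1008 and 1437, and an offset for the length slope 1174 and 1458. Limma gave 183 higher and 217 lower from 5 d to 7 d. From 15 h to 7 d the balance turned too, with 1217 higher and 1675 lower by limma, 1861 and 2013 by DESeq2, 1508 and 1587 with RLE, and 1650 and 1775 with the length offset. With the muscle score as a covariate, 2387, 445 and 3108 genes were called in the 3 comparisons, and 2101, 365 and 2990 of them were shared in the same direction with the counts above. Leaving out 1 mouse moved the 5 d against 15 h count between 1164 (without mouse 8 at 15 h) and 3252 (without mouse 8 at 5 d). It also fell by more than 1.5 times without mouse 7 (1639) or 10 (1617) at 15 h, or mouse 6 (1599), 7 (1282) or 9 (1373) at 5 d. The 7 d against 5 d count moved between 213 (without mouse 10 at 5 d) and 617 (without mouse 8 at 7 d), and was 421 without mouse 6 at 7 d. It fell by more than 1.5 times without mouse 6 (248), 7 (272) or 8 (330) at 5 d, or mouse 7 at 7 d (323). When only mice with a muscle score of at most 5 were kept, which leaves 2, 5 and 3 mice, 224, 169 and 199 genes were called.

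**Figure D2:**
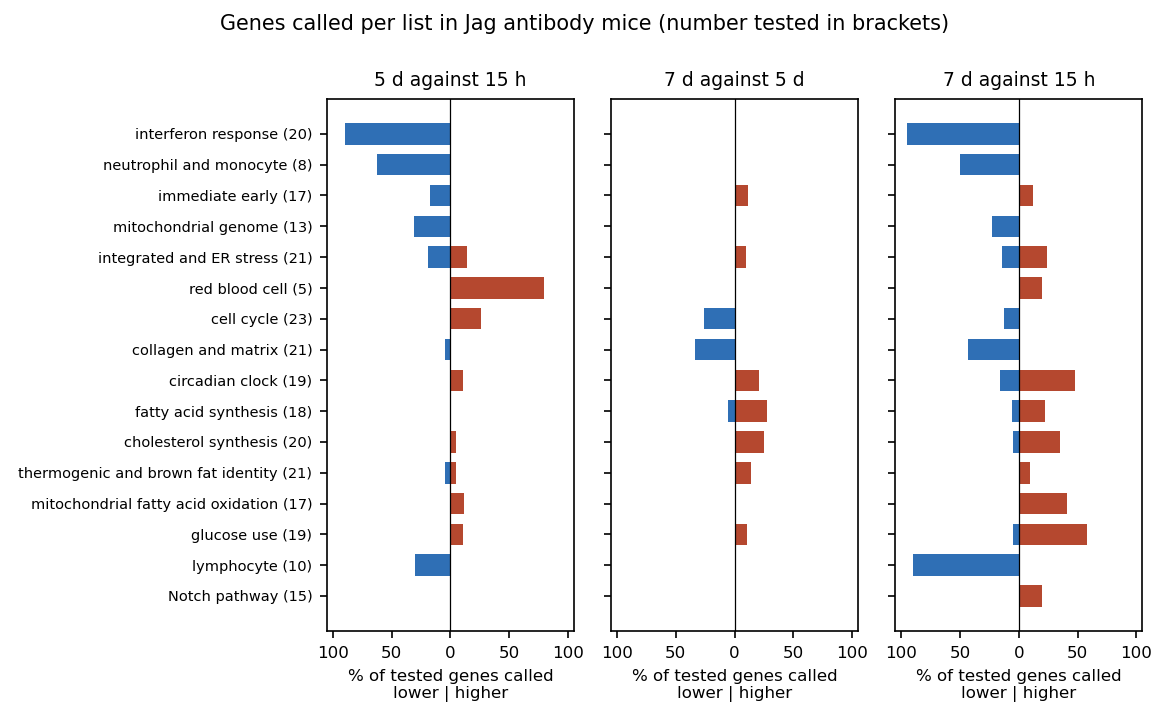
Share of tested genes called lower (left) or higher (right) in each gene list, in percent, for the 3 time comparisons in Jag antibody mice. Interferon response genes fell from 15 h to 5 d (18 of 20), and collagen and matrix genes were called only in the lower direction from 5 d to 7 d (7 of 21).

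Transcripts of the interferon response were high at 15 h and fell by 5 d. These genes are switched on by type I and type II interferons and encode antiviral effectors, guanylate-binding proteins and the Stat and Irf factors that carry the signal. Of 20 list genes tested, 18 fell from 15 h to 5 d and none rose, with a median log2 change of -2.30 against -0.02 over all genes. Over all genes 6.24% fell. From 5 d to 7 d all 20 changes were negative (median -0.72) and edgeR called none; 4 had an unadjusted p under 0.05 and DESeq2 called 1. By 7 d, 19 were below their 15 h level by the test. Without mouse 6 at 15 h the counts were again 18 and 19, and the count for 7 d against 15 h was 19 without mouse 6 at 7 d. With only low-muscle mice they were 5 and 9.

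Interferon-stimulated genes share a promoter element, so the promoters of leading members are shown as RefSeq gives them on GRCm38.p6, each as the 160 bases before the annotated start, 5′ to 3′ on the gene's strand. Capitals mark matches to GAAANNGAAA on either strand, a common form of the element. Isg15 (chr4:156200819-156200978, minus strand) has 3 overlapping matches, and Ifit1 (chr19:34640729-34640888, plus strand) and Ifit3 (chr19:34583369-34583528, plus strand) have 2 each.
Isg15: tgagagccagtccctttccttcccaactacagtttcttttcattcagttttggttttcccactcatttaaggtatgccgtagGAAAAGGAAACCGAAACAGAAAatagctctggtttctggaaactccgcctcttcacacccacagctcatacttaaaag
Ifit1: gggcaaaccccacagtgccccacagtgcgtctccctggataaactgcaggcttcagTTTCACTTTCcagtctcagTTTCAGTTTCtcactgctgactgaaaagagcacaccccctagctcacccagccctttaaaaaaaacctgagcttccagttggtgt
Ifit3: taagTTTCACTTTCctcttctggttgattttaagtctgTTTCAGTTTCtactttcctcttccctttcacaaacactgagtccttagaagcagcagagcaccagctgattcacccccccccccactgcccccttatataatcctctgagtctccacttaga
In windows of 250 bases before to 50 after the start, 10 of the 15 interferon list genes with a RefSeq entry held this motif (66.7%), against 3.99% of all 27025 genes with one. Those 10 were Bst2, Cxcl10, Gbp2, Gbp3, Ifit1, Ifit3, Isg15, Oas1a, Rsad2 and Stat2. The motif was chosen after the values were seen, and a match is a description of the letters only.

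Isg15 (chromosome 4, 156199424 to 156200818, GRCm38), a ubiquitin-like protein attached to other proteins during antiviral responses, was at 22.9, 83.8, 131, 9.17 and 154 CPM in mice 6 to 10 at 15 h. At 5 d it was at 19.4, 7.83, 1.85, 5.18 and 5.28 CPM, and at 7 d at 2.07, 2.62, 3.32, 11.4 and 4.46 CPM. Mice 7, 8 and 10 at 15 h were the high ones, mouse 9 at 15 h lay within the range of the later times, and the groups overlapped. The log2 fold change from 15 h to 5 d was -3.34 ± 0.81 (SE; adjusted p = 0.00755, edgeR), and it lost its call with only the low-muscle mice (adjusted p = 0.0733). Ifit1 (chromosome 19, 34640871 to 34650009), which binds foreign RNA caps, had the same pattern over mice at 15 h, with 23.0, 106, 175, 9.62 and 213 CPM. At 5 d it held 4.57 to 15.5 CPM, and it fell by 3.78 ± 0.83 on the log2 scale (adjusted p = 0.00365). The guanylate-binding protein gene Gbp3 (chromosome 3, 142560026 to 142573209) was at 75.7, 257, 282, 45.3 and 284 CPM at 15 h, 89.2, 28.0, 19.6, 23.0 and 33.0 CPM at 5 d, and 13.5, 21.0, 15.6, 26.9 and 19.1 CPM at 7 d. Mice 7, 8 and 10 were again the high ones at 15 h, and mouse 6 at 5 d lay within the 15 h range. Gbp3 fell by 2.29 ± 0.43 by 5 d (adjusted p = 0.00116) and lay lower in every mouse at 7 d than in any at 15 h (-3.30 ± 0.45, adjusted p = 1.67e-05). Ifi44 fell from 15 h to 7 d by 5.12 ± 0.72 (adjusted p = 2.27e-05), again with no overlap between the groups. None of these calls for Ifit1, Gbp3 or Ifi44 was lost when any 1 mouse was left out. Ifi27l2a was the 1 list gene with a positive change from 15 h to 5 d (0.93, adjusted p = 0.176). Control antibody mice showed a like fall in the list (17 of 20 lower, median -2.10). The mean log2 CPM of the list was 4.36, 6.75, 7.10, 4.28 and 5.02 in control mice 1 to 5 at 15 h, and 3.30 to 4.48 at 5 d. Control mice 2 and 3 at 15 h were the highest, and mice 1 and 4 lay within the 5 d range. Gbp3 in the control mice changed by -1.38 (adjusted p = 0.0107), and its difference between antibodies did not pass (adjusted p = 0.475).

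The largest falls from 15 h to 5 d were in genes that include several known from inflammation. Genes were ranked by their fall among called genes whose groups did not overlap and whose mean log2 CPM was at least 1. Only protein-coding genes also called lower with the muscle covariate were ranked, without predicted, Riken or antisense symbols. The first 10 were Slfn4, Lcn2, Ccl7, Ccl2, S100a8, S100a9, Serpina3n, Cxcl13, Ffar2 and Itih4. Lcn2 (chromosome 2, 32384633 to 32388252), an iron-siderophore-binding protein made in acute inflammation, was at 21.2, 18.7, 188, 11.4 and 154 CPM at 15 h. At 5 d it was at 1.34, 1.24, 0.231, 1.28 and 0.480 CPM, and at 7 d at 10.7, 2.06, 1.81, 1.86 and 2.28 CPM. Mice 8 and 10 were the highest at 15 h, and every 15 h mouse was above every later mouse. The change to 5 d was -6.46 ± 1.14 (adjusted p = 0.000926). Slfn4, a Schlafen gene of myeloid cells, was at 237 and 288 CPM in the same 2 mice at 15 h, at 6.44 to 14.1 CPM in the other 3, and at 0.257 to 0.808 CPM at 5 d. It fell by 7.73 ± 1.70 (adjusted p = 0.00377). The chemokine gene Ccl2, which draws monocytes, was at 17.5, 9.69, 87.6, 7.87 and 53.7 CPM at 15 h and 0.277 to 1.93 CPM at 5 d (-5.25 ± 1.09, adjusted p = 0.00266). Ccl7 fell by 5.42 ± 1.12 (adjusted p = 0.00252).

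Of 8 neutrophil and monocyte markers, 5 fell from 15 h to 5 d (median -3.09), against 6.24% of all genes: S100a8, S100a9, Csf3r, Cxcr2 and Plac8. Their summed level was 89.7, 44.5, 247, 71.1 and 193 CPM in mice 6 to 10 at 15 h, 11.6 to 35.1 CPM at 5 d and 9.45 to 22.9 CPM at 7 d. Mice 8 and 10 at 15 h, the highest for Lcn2, Slfn4 and Ccl2, were also the highest for these markers; how far the markers and the acute-phase genes move together was not tested. The count was 2 without mouse 8 at 15 h or mouse 9 at 5 d, 3 without mouse 10 at 15 h or mouse 7 or 10 at 5 d, and 0 with only low-muscle mice. S100a9, a calcium-binding protein abundant in neutrophils, was at 28.0, 6.50, 60.2, 23.9 and 53.1 CPM at 15 h and 0.667 to 1.62 CPM at 5 d. It fell by 4.95 ± 1.24 (adjusted p = 0.00924), and the call was lost with only low-muscle mice (adjusted p = 0.0594). S100a8 fell by 5.05 ± 1.52 (adjusted p = 0.026). Its adjusted p rose to 0.0631 without mouse 8 at 15 h, 0.0619 without mouse 6 at 5 d and 0.0664 without mouse 9 at 5 d. Of 10 macrophage markers none was called by edgeR or DESeq2 in any of the 3 comparisons, and at most 1 had an unadjusted p under 0.05. In control antibody mice all 8 neutrophil and monocyte markers fell over the same interval (median -3.86). Their summed level was 30.1, 3436, 787, 41.8 and 145 CPM in control mice 1 to 5 at 15 h, and 18.9 to 87.9 CPM at 5 d. Control mice 2 and 3 at 15 h were thus the highest, and mice 1 and 4 lay within the 5 d range.

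Serpina3n (chromosome 12, 104406729 to 104414329), a secreted protease inhibitor of the acute phase, went down and came back. It was at 106, 52.9, 186, 72.2 and 257 CPM at 15 h, 3.58, 7.64, 5.41, 3.38 and 3.84 CPM at 5 d, and 146, 26.9, 12.0, 17.4 and 29.9 CPM at 7 d. The 5 d mice lay below all 10 others. The fall was -4.82 ± 0.85 (adjusted p = 0.000908) and the return 3.29 ± 0.79 (adjusted p = 0.0197). The return was 2.17 (adjusted p = 0.108) without mouse 6 at 7 d, the mouse with the high muscle score, and its adjusted p was 0.0565 without mouse 6 at 5 d, 0.0574 without mouse 10 at 5 d and 0.059 with the muscle covariate. Itih4, another secreted acute-phase protein, fell by 3.31 ± 0.53 (adjusted p = 0.000429) and its later change of 0.65 did not pass (adjusted p = 0.545).

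Immediate early genes are transcribed within minutes of a stimulus to the cell. Fos (chromosome 12, 85473890 to 85477273) was at 11.1, 20.7, 13.9, 38.6 and 21.2 CPM at 15 h, 0.963, 1.43, 0.832, 1.23 and 1.17 CPM at 5 d, and 15.6, 24.3, 7.18, 2.55 and 5.91 CPM at 7 d. Every 5 d mouse was below every other mouse. Fos fell by 4.22 ± 0.89 (adjusted p = 0.00281) and rose again by 3.30 ± 0.87 (adjusted p = 0.0293). The rise lost its call in 7 of the 10 repeats that left out 1 mouse (mice 6, 7, 8, 9 or 10 at 5 d, or 6 or 7 at 7 d), with adjusted p between 0.0527 and 0.0778. Fosb rose by 5.42 ± 1.14 from 5 d to 7 d (adjusted p = 0.00868) and kept its call in all 10. Of 17 list genes, 3 fell from 15 h to 5 d (median -1.03), against 6.24% of all genes. From 5 d to 7 d 2 rose (median 0.88), against 2.01%. The count of 2 was 1 without any of the 5 mice at 5 d, without mouse 6 or 7 at 7 d and with only low-muscle mice, which also left 1 of the 3 falls. Control antibody mice moved the same way, with 10 falling and 6 rising.

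**Figure D3:**
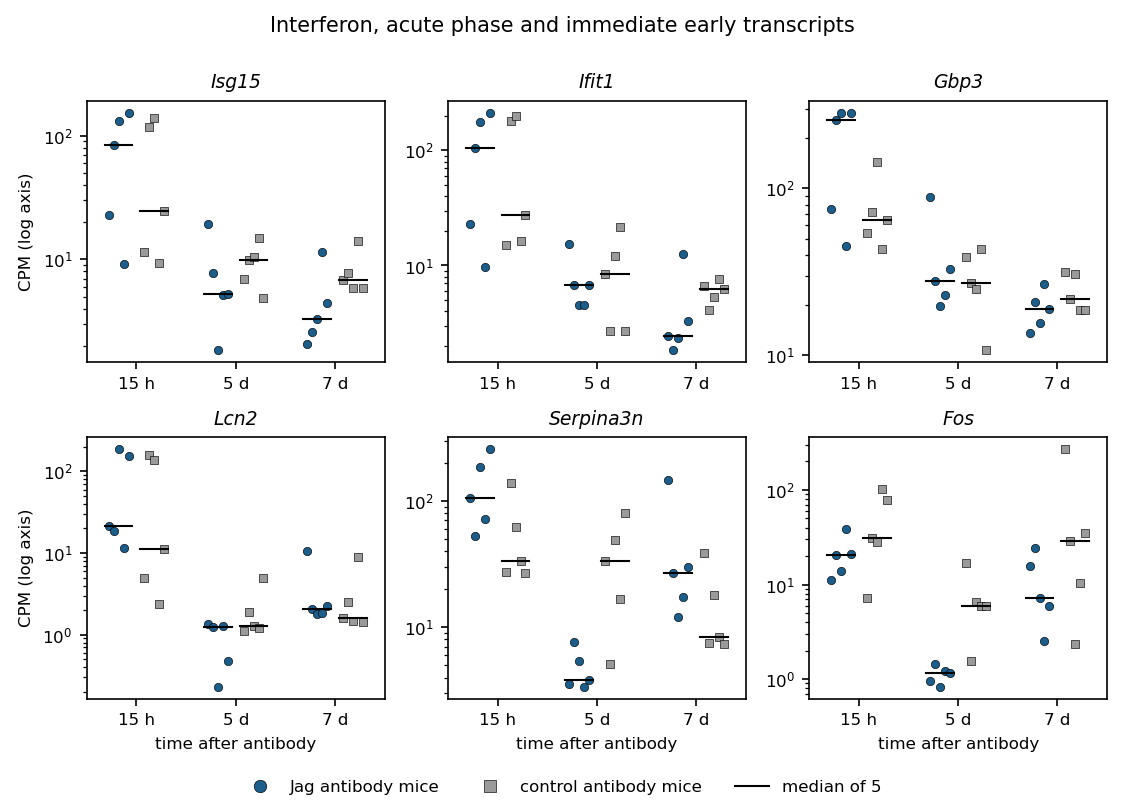
CPM (log axis) of Isg15, Ifit1, Gbp3, Lcn2, Serpina3n and Fos in each mouse by time after the dose. Circles are Jag antibody mice, squares control antibody mice and lines medians of 5; Lcn2 in Jag antibody mice lies between 11.4 and 188 CPM at 15 h and between 0.231 and 1.34 CPM at 5 d.

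The calls for lymphocyte markers rested on 1 mouse. Of 10 markers, 3 were called lower at 5 d than at 15 h and 9 were called lower at 7 d than at 15 h, and both counts were 0 without mouse 6 at 15 h. Its summed lymphocyte level was 120 CPM, against 4.52 to 10.0 CPM in the other 15 h mice. Cd79a, a subunit of the B cell receptor, was at 9.86 CPM there and at 0.478 to 0.975 CPM in the other 4, so its change to 5 d of -1.90 (adjusted p = 0.0176) became -0.14 (adjusted p = 0.83) without that mouse.

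Impdh1 and Esrp2 stood highest at 5 d, and Adam11 rose by 5 d. The guanine nucleotide synthesis enzyme Impdh1 (chromosome 6, 29200434 to 29216364) was at 168, 180, 43.1, 124 and 67.7 CPM at 15 h. At 5 d it was at 650, 759, 402, 534 and 877 CPM, and at 7 d at 116, 243, 136, 306 and 187 CPM. No 5 d mouse overlapped a mouse of either other time. It rose by 2.47 ± 0.42 (adjusted p = 0.000639) and fell by 1.71 ± 0.40 (adjusted p = 0.0163; 0.0512 without mouse 10 at 5 d). Esrp2, an epithelial splicing regulator, rose by 2.12 ± 0.46 (adjusted p = 0.00336) and fell by 2.32 ± 0.47 (adjusted p = 0.00534), and its 5 d mice, at 7.53 to 12.7 CPM, were above all others. Adam11 (chromosome 11, 102761439 to 102780262), a catalytically inactive member of the ADAM family, was at 1.90 to 6.11 CPM at 15 h and at 78.4, 31.8, 12.3, 14.3 and 19.7 CPM at 5 d. It rose by 2.83 ± 0.45 (adjusted p = 0.000429), and its later change of -1.23 did not pass (adjusted p = 0.0947). In control antibody mice the changes of Impdh1, Esrp2 and Adam11 from 15 h to 5 d were 0.20, 0.37 and 0.31, none of them called. The differences between antibodies did not pass either (adjusted p = 0.069, 0.2 and 0.064).

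Other genes rose by 5 d. Ddit4, a stress-induced inhibitor of mTORC1, was at 5.27 to 16.8 CPM at 15 h, 32.9 to 60.2 CPM at 5 d and 20.2 to 57.0 CPM at 7 d, and rose by 2.18 ± 0.45 to 5 d (adjusted p = 0.00226). Plekhf1, which is found on endosomes and lysosomes, rose from 2.60 to 7.96 CPM at 15 h to 21.1 to 37.9 CPM at 5 d (2.31 ± 0.35, adjusted p = 0.000268). Depp1, a target of FoxO factors, was at 8.91 to 20.6 CPM at 15 h and 62.1 to 101 CPM at 5 d (2.55 ± 0.59, adjusted p = 0.00551). Tsc22d3, a glucocorticoid-induced gene, rose by 1.24 ± 0.29 (adjusted p = 0.00579). In each of these 4 genes all 5 d mice were above all 15 h mice. Depp1 and Tsc22d3 lost their calls with only low-muscle mice (adjusted p = 0.148 and 0.0594). The leptin gene Lep, a hormone transcript of lipid-filled adipocytes, went the other way. It was at 23.3, 154, 90.6, 30.4 and 120 CPM at 15 h and at 10.3 to 13.7 CPM at 5 d, a fall of 2.80 ± 0.56 (adjusted p = 0.00186; 0.0596 with only low-muscle mice).

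Globin and cell cycle transcripts were also higher at 5 d. Hba-a2, an alpha globin of red blood cells, was at 6.81 to 17.3 CPM at 15 h and at 177, 103, 17.5, 98.8 and 38.4 CPM at 5 d (3.03 ± 0.64, adjusted p = 0.00266). It shares near-identical sequence with Hba-a1, so how reads divide between them is uncertain. Of 5 red blood cell genes 4 rose, against 8.22% of all genes, and the count was 0 with only low-muscle mice. Their summed level was 142 to 337 CPM at 15 h and 308 to 1867 CPM at 5 d. In control antibody mice all 5 rose over the same interval (median 2.54, against 2.22 in Jag antibody mice). Among 23 cell cycle genes 6 rose from 15 h to 5 d, against 8.22% of all genes, and none fell: Ccnb2, Cdk1, Birc5, Bub1b, Cenpf and Rrm2. From 5 d to 7 d 6 fell, against 1.28% of all genes, and none rose. In control antibody mice 1 rose and 2 fell in the first interval (median 0.35, against 0.65), and 7 fell in the second (median -1.12, against -0.87). EdgeR called the difference between antibodies for none of the 23 in either interval, and DESeq2 for 1 in the first. Cdk1 (chromosome 10, 69335146 to 69352938), the kinase that starts mitosis, was at 0.637 to 1.51 CPM at 15 h, at 8.82, 7.08, 1.20, 1.44 and 3.28 CPM at 5 d, and at 2.54, 0.668, 0.516, 0.759 and 0.775 CPM at 7 d. Mice 6 and 7 at 5 d carried the high values, and mice 8 and 9 at 5 d lay within the 15 h range. Cdk1 rose by 2.13 ± 0.50 (adjusted p = 0.00579) and fell by 2.03 ± 0.49 (adjusted p = 0.0197). The fall lost its call without mouse 6 at 5 d (adjusted p = 0.0884), mouse 7 at 5 d (0.0603) or mouse 7 at 7 d (0.0512). The count of 6 rising genes was 3 without mouse 6 at 5 d and 1 with only low-muscle mice. The count of 6 falling genes was 0 without mouse 6 at 5 d, 2 without mouse 7 or 10 at 5 d or mouse 8 at 7 d, and 1 without mouse 7 or 9 at 7 d or with only low-muscle mice. DESeq2 called 10 lower and limma none, and for the rise limma called 2. The levels are low, and counting error weighs most on the lowest values. How much of the spread between mice it makes up was not tested.

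Clock genes changed across the series of times. The clock is a feedback loop in which Clock, Npas2 and Arntl drive the Per and Cry genes, Ciart, Bhlhe40 and Dbp, most of which repress it in turn; their levels swing over the day. From 15 h to 7 d, 9 of 19 list genes rose and 3 fell (median 0.91, against 0.04 over all genes). Over all genes 10.4% rose and 7.93% fell. Among the 9 were Per1, Per2, Per3, Dbp, Tef, Bhlhe40, Bhlhe41 and Ciart, and the 3 were Arntl, Clock and Npas2. Without mouse 6 at 7 d the counts were 7 and 2, and with only low-muscle mice 0 and 0. By 5 d 2 had risen (Per1 and Per2), and from 5 d to 7 d 4 rose (Cry2, Dbp, Bhlhe40 and Ciart) and none fell. The first count, near the 8.22% over all genes, was 1 without mouse 7, 8 or 10 at 15 h or mouse 9 at 5 d, 1 with only low-muscle mice, and 1 with limma, which also called 2 lower; the second was 1 with only low-muscle mice. Control antibody mice showed 5 higher and 2 lower from 15 h to 7 d (median 0.18). The hour of collection, which clock transcripts follow, is not given.

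Per1 (chromosome 11, 69095217 to 69109960) was at 11.6, 19.1, 7.21, 25.7 and 22.9 CPM at 15 h, 34.1, 59.8, 67.8, 83.3 and 103 CPM at 5 d, and 87.7, 56.4, 87.0, 73.9 and 72.5 CPM at 7 d. The 15 h mice lay below all others. It rose by 2.01 ± 0.35 to 5 d (adjusted p = 0.000797) and its later change of 0.12 ± 0.34 did not pass (adjusted p = 0.918). Per2 (chromosome 1, 91415982 to 91459324) climbed at each step, from 2.95 to 12.3 CPM at 15 h to 15.1 to 22.4 CPM at 5 d and 35.7 to 53.7 CPM at 7 d, with no overlap between any pair of times. Its first step was 1.44 ± 0.45 (adjusted p = 0.0301), its second 1.23 ± 0.44 (adjusted p = 0.109, not called), and the whole 2.67 ± 0.47 (adjusted p = 0.000376). The first step lost its call without mouse 7, 8 or 10 at 15 h or mouse 9 at 5 d (adjusted p = 0.0556 to 0.0953). Bhlhe40 (chromosome 6, 108660629 to 108666925) was at 10.9 to 35.0 CPM at 5 d and at 58.3, 150, 104, 115 and 98.0 CPM at 7 d. That rise of 2.39 ± 0.39 (adjusted p = 0.00091) kept its call in all 10 repeats without 1 mouse and with only low-muscle mice. Ciart rose by 1.71 ± 0.44 from 5 d to 7 d (adjusted p = 0.0245), a call that was lost without mouse 6, 7 or 10 at 5 d or mouse 9 at 7 d (adjusted p = 0.0707 to 0.0798). Npas2 fell by 1.67 ± 0.42 from 15 h to 7 d (adjusted p = 0.00698) and Clock by 0.96 ± 0.29 (adjusted p = 0.0204), in both cases with every 7 d mouse below every 15 h mouse. Arntl fell by 0.94 ± 0.31 (adjusted p = 0.0325), and its groups overlapped.

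The CACGTG E-box is the letter sequence through which Clock and Arntl bind. Ciart has 3 of them, in capitals, in the 160 bases before its start (chr3:95882229-95882388, minus strand, GRCm38.p6, RefSeq).
Ciart: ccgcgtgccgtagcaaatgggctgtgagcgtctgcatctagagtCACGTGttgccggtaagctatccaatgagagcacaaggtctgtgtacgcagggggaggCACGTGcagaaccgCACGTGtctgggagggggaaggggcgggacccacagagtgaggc
Among the 16 clock list genes with a RefSeq promoter, 5 held the E-box in the window of 250 bases before to 50 after the start (31.2%): Bhlhe41, Ciart, Cry1, Per1 and Tef. Of all genes with an entry, 8.09% did. The E-box was also in 4 of 13 cholesterol synthesis genes (30.8%) and 3 of 14 fatty acid synthesis genes (21.4%), so its share is not particular to clock genes. The hexamer AGGTCA, bound by nuclear receptors such as those of the Rev-erb and Ror families, was in 5 of the 16 clock genes, against 18.1% of all genes. The D-box (TTATGTAA, TTATATAA, TTACGTAA or TTACATAA) was in 1 of the 16, Per3, against 1.86%. The sterol element form TCACCCCA was in 2 of 13 cholesterol and 1 of 14 fatty acid synthesis genes, against 1.77%. Both strands were searched, and no match says only that the letters are not in this window.

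Genes of lipid synthesis rose between 5 d and 7 d. Of 18 fatty acid synthesis genes, Fasn, Acaca, Elovl6, Slc25a1 and Pnpla3 rose and Fads2 fell, with a median of 1.04 against 0.01 over all genes. Over all genes 2.01% rose and 1.28% fell. Fasn (chromosome 11, 120805846 to 120824547), the fatty acid synthase, was at 1277, 515, 264, 5809 and 326 CPM in mice 6 to 10 at 15 h. It was at 632, 777, 936, 940 and 1407 CPM at 5 d and at 2297, 9855, 2762, 10620 and 6286 CPM at 7 d. Every 7 d mouse was above every 5 d mouse, but mouse 9 at 15 h lay within the 7 d range. The rise was 2.76 ± 0.79 (adjusted p = 0.0438), and 8 of the 10 repeats without 1 mouse lost the call. Only the repeats without mouse 6 or 8 at 7 d kept it; the others gave adjusted p between 0.0589 and 0.114. Acaca, the carboxylase that supplies Fasn, rose by 2.29 ± 0.57 (adjusted p = 0.0218; 0.0667 without mouse 6 at 5 d, and also lost without mouse 10 at 5 d or mouse 7 or 9 at 7 d). The count of 5 was 0 without mouse 6 or 10 at 5 d, mouse 7 or 9 at 7 d or with only low-muscle mice, 1 without mouse 7 at 5 d, 2 without mouse 8 or 9 at 5 d and 3 without mouse 10 at 7 d. It was 7 without mouse 6 at 7 d, 7 with the muscle covariate and 1 with limma. In control antibody mice 6 of the 18 rose from 15 h to 5 d and 4 from 5 d to 7 d. In Jag antibody mice none was called from 15 h to 5 d by edgeR or DESeq2 (1 at an unadjusted p under 0.05; median -0.31, against 0.91 in control mice). The difference between antibodies in that interval was called for none of the 18 by either tool, with 9 at an unadjusted p under 0.05.

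Cholesterol synthesis genes also rose from 5 d to 7 d. Of 20 genes 5 rose, against 2.01% of all genes, and none fell (median 0.92). Sc5d, Msmo1 and Nsdhl were among the 5. Sc5d (chromosome 9, 42251595 to 42264256), a sterol desaturase, was at 51.6, 71.7, 56.5, 87.2 and 48.4 CPM at 15 h, at 27.4, 37.5, 37.1, 31.2 and 35.2 CPM at 5 d, and at 50.4, 170, 74.1, 220 and 73.7 CPM at 7 d. Every 5 d mouse was below all other Jag antibody mice, and mouse 6 at 7 d lay within the 15 h range. It rose by 1.80 ± 0.33 (adjusted p = 0.00226) and kept that call in every repeat run, the low-muscle mice included. Msmo1, a sterol oxidase, rose by 1.26 ± 0.31 (adjusted p = 0.0207). That call was lost without mouse 8 or 10 at 5 d or mouse 7 or 9 at 7 d (adjusted p = 0.0544 to 0.062), and with only low-muscle mice (0.106). The list count was 3 without mouse 10 at 5 d or mouse 7 or 9 at 7 d and with only low-muscle mice, and 8 with DESeq2. In control antibody mice 11 of the 20 rose over the same interval (median 1.10).

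Further genes with large rises from 5 d to 7 d are described singly, with no list behind them. The amino acid transporter gene Slc7a10 (chromosome 7, 35186385 to 35201114), a marker of adipocytes, was at 6.29 to 17.8 CPM at 15 h, 0.642 to 2.86 CPM at 5 d, and 71.1, 16.3, 9.47, 12.1 and 51.5 CPM at 7 d. It rose by 3.96 ± 0.86 (adjusted p = 0.00998) from a 5 d level below all other Jag antibody mice. The score of 3 white adipocyte markers, Lep among them, was 3.66 to 5.03 at 15 h and 2.34 to 3.92 at 5 d. At 7 d that score was 6.36, 3.98, 2.38, 4.08 and 5.31 in mice 6 to 10, highest in the 2 mice with the most Slc7a10. How far Slc7a10 moves with these markers was not tested. Slc2a5, a fructose transporter, rose by 6.56 ± 1.45 (adjusted p = 0.0111; 0.165 with only low-muscle mice), from 0.107 to 0.559 CPM at 5 d to 2.91 to 98.6 CPM at 7 d. Sorl1, a sorting receptor, rose by 3.02 ± 0.48 (adjusted p = 0.000823), from 3.92 to 9.56 CPM to 36.3 to 77.7 CPM. Cbs and Gnmt, enzymes of sulphur amino acid and methyl group metabolism, were at 0.328 to 1.41 and 0.59 to 2.60 CPM at 15 h and at 5.38 to 12.6 and 5.82 to 19.7 CPM at 7 d. From 5 d to 7 d they rose by 2.44 ± 0.52 (adjusted p = 0.00876) and 2.33 ± 0.42 (adjusted p = 0.00226). From 15 h to 7 d Cbs rose by 3.43 ± 0.55 (adjusted p = 0.000143) and Gnmt by 3.34 ± 0.44 (adjusted p = 1.62e-05).

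**Figure D4:**
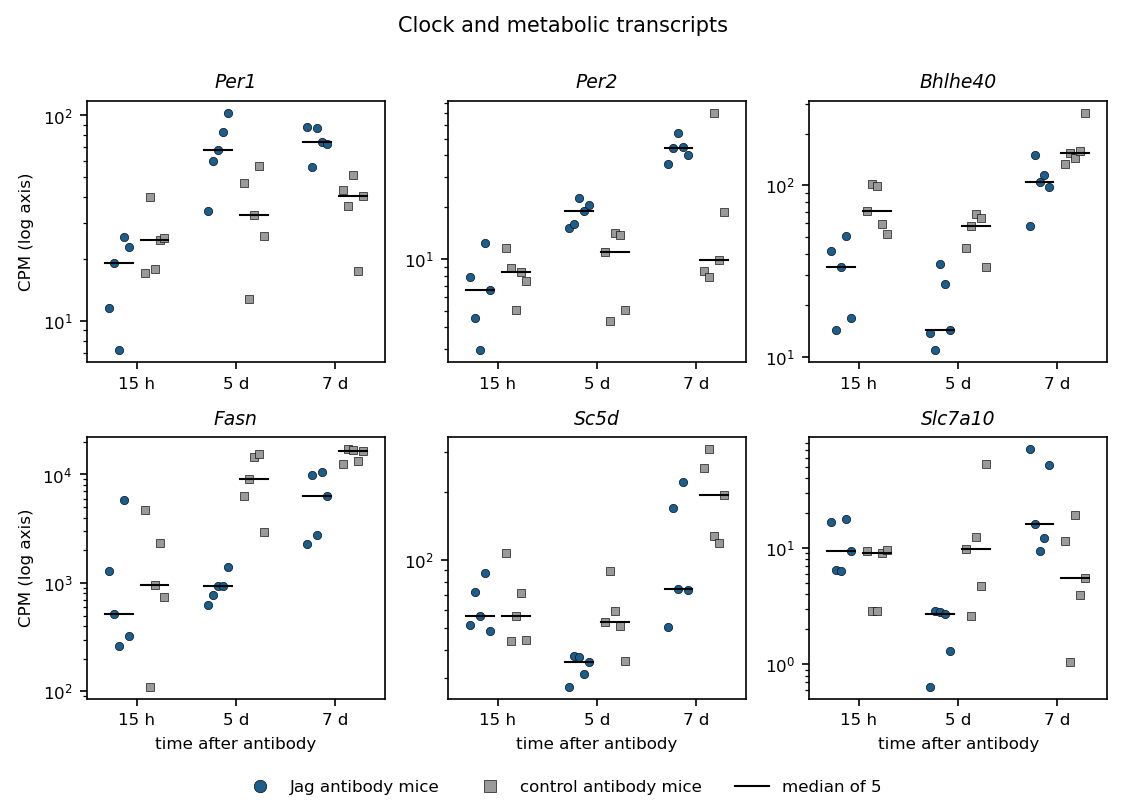
CPM (log axis) of Per1, Per2, Bhlhe40, Fasn, Sc5d and Slc7a10 in each mouse by time after the dose. Circles are Jag antibody mice, squares control antibody mice and lines medians of 5; Per2 in Jag antibody mice climbs from at most 12.3 CPM at 15 h to at least 35.7 CPM at 7 d.

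Genes of glucose use rose over the whole period. From 15 h to 7 d 11 of 19 rose, against 10.4% of all genes, and 1, Pfkfb3, fell (median 0.90). In each single step 2 of the 19 were called higher. For 15 h to 5 d that count is near the 8.22% over all genes; it was 0 with RLE, the muscle covariate, limma, only low-muscle mice, or without mouse 6, 7, 8 or 10 at 15 h or mouse 6, 7 or 9 at 5 d, and 5 without mouse 9 at 15 h. For 5 d to 7 d, where 2.01% of all genes were higher, it was 4 with DESeq2 or the length offset. Hk1, a hexokinase, was at 10.3 to 16.6 CPM at 15 h, 16.0 to 23.7 CPM at 5 d, and 15.9, 58.5, 90.6, 34.7 and 49.9 CPM at 7 d. Mouse 6 at 7 d stayed within the earlier range. Hk1 rose by 1.85 ± 0.29 from 15 h to 7 d (adjusted p = 0.000122). Pyruvate kinase, Pkm, rose by 1.12 ± 0.19 (adjusted p = 0.000305) with no overlap. The list count was 12 without mouse 6 at 7 d, 9 without mouse 6 at 15 h and 1 with only low-muscle mice. Of 17 genes of mitochondrial fatty acid oxidation 7 rose from 15 h to 7 d, against 10.4% of all genes, and none fell. That count was 2 to 4 without mouse 6, 8 or 10 at 15 h or mouse 7, 8 or 9 at 7 d, 12 without mouse 6 at 7 d, and 0 with only low-muscle mice. In control antibody mice 15 of the 19 glucose genes and 15 of the 17 oxidation genes rose over the same period.

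Thermogenic genes were called from 15 h to 5 d at near the share over all genes. Of 21 thermogenic and brown fat identity genes, 1 rose and 1 fell, against 8.22% higher and 6.24% lower over all genes. From 5 d to 7 d 3 rose, against 2.01%. From 15 h to 7 d 2 rose and none fell (median 0.54), against 10.4% higher. In control antibody mice 5 rose in each step and 1 fell in the second. From 15 h to 7 d 13 rose there and 2 fell (median 1.33). EdgeR called the difference between antibodies for none of the 21 in either step, and DESeq2 for 2 in the first. Ucp1 was at 4935, 4252, 4725, 6906 and 4341 CPM at 15 h, 4518, 4707, 5277, 7793 and 3128 CPM at 5 d, and 2044, 11600, 14050, 6577 and 7828 CPM at 7 d. Mouse 6 at 7 d, with the high muscle score, was the lowest of all 15, and mice 7 and 8 at 7 d were the highest. The Ucp1 changes were 0.02 ± 0.41 (adjusted p = 0.986) and 0.73 ± 0.41 (adjusted p = 0.362). Elovl3, a fatty acid elongase induced in active brown fat, rose by 3.13 ± 0.86 from 5 d to 7 d (adjusted p = 0.0373), and Adrb3, the adipocyte adrenergic receptor, by 1.44 ± 0.36 (adjusted p = 0.0226). The Elovl3 call was lost without mouse 6, 7, 8 or 10 at 5 d or mouse 7 or 9 at 7 d (highest adjusted p = 0.103, without mouse 6 at 5 d). The Adrb3 call was lost without mouse 7, 8 or 10 at 5 d or mouse 7 or 10 at 7 d (highest 0.0736, without mouse 10 at 5 d). The list count of 3 was 1 without mouse 7, 8 or 10 at 5 d or mouse 7 at 7 d. Of 13 transcripts of the mitochondrial genome 4 fell from 15 h to 5 d (mt-Nd2, mt-Nd4l, mt-Nd5 and mt-Nd6), against 6.24% of all genes. That count was 2 without mouse 8 at 15 h or mouse 6 at 5 d and 0 with only low-muscle mice. In control antibody mice 8 of the 13 fell over the same interval (median -0.66, against -0.55 in Jag antibody mice). mt-Nd5, a complex I subunit, lay at 15580 to 23310 CPM at 15 h and at 4409 to 15950 CPM at 5 d (-1.25 ± 0.32, adjusted p = 0.00951).

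Collagen and matrix genes fell between 5 d and 7 d. Of 21 list genes 7 fell, against 1.28% of all genes, and none rose (median -0.65, with 18 of 21 changes negative): Col1a1, Col1a2, Col3a1, Col5a1, Col6a3, Sparc and Postn. These encode fibrillar collagens, the collagen-binding protein Sparc and periostin, and are made chiefly by fibroblasts. Col3a1 (chromosome 1, 45311538 to 45349706) was at 597, 446, 356, 419 and 448 CPM at 15 h, 488, 708, 396, 246 and 687 CPM at 5 d, and 125, 139, 46.9, 59.8 and 150 CPM at 7 d. No 7 d mouse reached the lowest earlier mouse. It fell by 2.28 ± 0.36 (adjusted p = 0.000823). Col1a1 (chromosome 11, 94936224 to 94953042) was at 81.7, 129, 76.9, 90.6 and 120 CPM at 5 d and 56.7, 24.7, 12.1, 18.8 and 33.9 CPM at 7 d, a fall of 1.77 ± 0.41 (adjusted p = 0.0146). Postn (chromosome 3, 54361109 to 54391037) was at 117 to 157 CPM at 15 h, 99.3 to 136 CPM at 5 d and 26.0, 45.3, 29.1, 40.4 and 52.0 CPM at 7 d, and it fell by 1.58 ± 0.26 (adjusted p = 0.000873). All 3 genes kept their calls in every repeat run. The list count was 3 without mouse 7 or 10 at 5 d or mouse 9 at 7 d, 4 without mouse 8 at 7 d, with only low-muscle mice and with limma, 6 without mouse 6 at 7 d, and 10 with the muscle covariate.

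Of 9 fibroblast and progenitor markers 1, Col15a1, was called lower from 5 d to 7 d, against 1.28% of all genes. The median change of the 9 was -0.25, with 5 negative, and their score, the mean log2 CPM, had medians of 6.22 at 15 h, 5.87 at 5 d and 5.49 at 7 d. Their summed level, which the most abundant genes set, went the other way, with 1491 to 2198 CPM at 15 h, 1706 to 2740 CPM at 5 d and 2348 to 5477 CPM at 7 d, highest in mouse 6. Of the same 9, 8 fell in control antibody mice from 5 d to 7 d. The part of fibroblast RNA in the collagen fall was not tested. In control antibody mice, 15 of 21 collagen and matrix genes rose from 15 h to 5 d and 16 fell from 5 d to 7 d, whereas in Jag antibody mice only Timp1 was called in the first interval, as lower (-3.21 ± 0.88, adjusted p = 0.0152). The difference between antibodies from 15 h to 5 d was called for none of the 21 genes by edgeR (15 at an unadjusted p under 0.05) and for 11 by DESeq2. The control median for Col3a1 was 427 CPM at 15 h, 1429 CPM at 5 d and 314 CPM at 7 d. Postn changed by -0.22 in control mice from 5 d to 7 d, and the difference between antibodies was -1.36 (adjusted p = 0.047). That difference lost its call in 14 of the 20 repeats without 1 mouse, 7 of them without a Jag antibody mouse (any of the 5 at 5 d, or mouse 6 or 8 at 7 d), with adjusted p up to 0.222 without mouse 6 at 7 d. The other 7 left out control mouse 3, 4 or 5 at 5 d or 1, 2, 3 or 4 at 7 d.

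**Figure D5:**
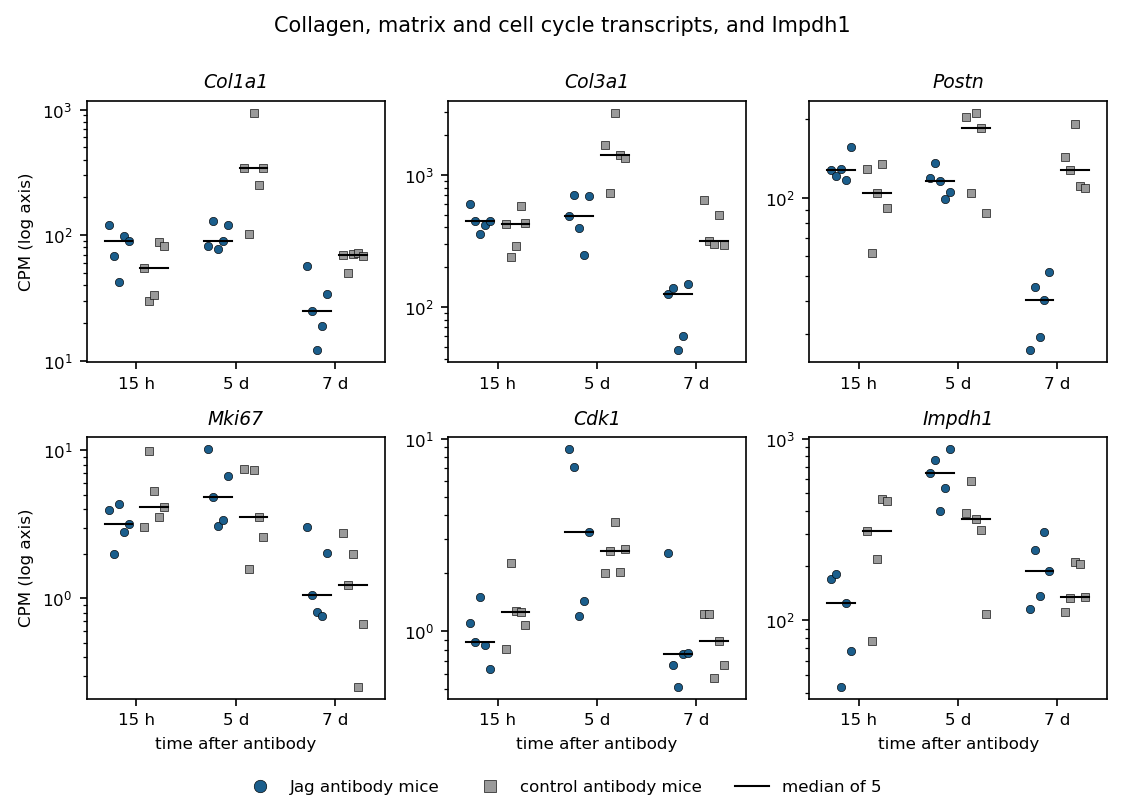
CPM (log axis) of Col1a1, Col3a1, Postn, Mki67, Cdk1 and Impdh1 in each mouse by time after the dose. Circles are Jag antibody mice, squares control antibody mice and lines medians of 5; Postn in Jag antibody mice lies between 99.3 and 157 CPM at 15 h and 5 d and between 26.0 and 52.0 CPM at 7 d.

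No Notch pathway transcript was called in either single step, and 3 were called from 15 h to 7 d. Over all genes 8.22% rose and 6.24% fell in the first step, and 2.01% and 1.28% in the second. In a list of 15 genes, counts of 0 are not far from these shares. Of 15 genes none was called by edgeR or DESeq2 from 15 h to 5 d or from 5 d to 7 d (medians 0.30 and 0.14; 4 and 2 at an unadjusted p under 0.05), and Hes1 was nearest in the first step (0.72 ± 0.27, adjusted p = 0.0623). With the muscle covariate Hes1 was called higher in that step (0.88, adjusted p = 0.0259). From 15 h to 7 d Hey1, Dll4 and Notch4 rose and none fell, 3 of 15 against 10.4% higher over all genes. Hey1, a target of Notch, was at 2.21, 2.04, 2.23, 2.47 and 2.55 CPM at 15 h, at 4.87, 2.80, 3.93, 2.92 and 3.49 CPM at 5 d, and at 4.83, 7.18, 8.62, 5.24 and 4.65 CPM at 7 d. The 15 h mice were below all others. Hey1 rose by 1.41 ± 0.28 (adjusted p = 0.0012), and in control mice by 1.67. The endothelial ligand Dll4 rose by 1.19 ± 0.29 (adjusted p = 0.00565) from 6.25 to 11.7 CPM at 15 h to 11.1 to 43.6 CPM at 7 d. It changed by -0.07 in control mice (adjusted p = 0.87). The difference between antibodies was not tested for 15 h to 7 d. The receptor Notch4 rose by 0.96 ± 0.29 (adjusted p = 0.0222). Mouse 8 at 7 d was the highest for all 3. The count of 3 was 1 with only low-muscle mice. Of 10 endothelial markers 2 rose from 15 h to 7 d, Vwf and Esam, against 10.4% higher over all genes. In control antibody mice 4 of the 10 rose.

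Changes over time were set beside those under the control antibody. Across the 17079 genes, log2 changes in Jag antibody and in control antibody mice, which share no animals, had a Spearman correlation of 0.522 from 15 h to 5 d, 0.147 from 5 d to 7 d and 0.693 from 15 h to 7 d. Pearson correlations were 0.260, -0.242 and 0.620, so the sign for 5 d to 7 d depends on the measure; genes are not independent replicates. Of the 2470 genes called from 15 h to 5 d, 2308 had the same sign in control mice (73.3% of all genes tested did), and 1515 were called there in the same direction, which is 61.3% of this list and 24.4% of the control list of 6214. Of the 562 called from 5 d to 7 d, 419 had the same sign (57.0% of all genes tested) and 158 were called alike, 28.1% of this list and 10.1% of the control list of 1559. A direct test of the difference between antibodies called 17 genes in the first interval (0.0995% of those tested) and 220 in the second (1.29%). With the muscle score as a covariate both counts were 0 in edgeR's test, with 1262 and 1238 genes at an unadjusted p under 0.05. Without mouse 6 at 7 d the second count was 5. Muscle scores in control mice at 5 d were 5.10 to 13.7, and the part of muscle RNA in these differences was not tested further.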

How the data were processed

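Total RNA was extracted with Trizol and columns from snap-frozen tissue and read as single-end 50 bp reads per the labels' protocols. GSNAP and limma are named in the submitters' processing notes; the build, annotation and counting settings are not given in the sources used here. The authors deposited raw counts per Ensembl gene (52636 genes, 40 mice) and a table of FPKM; each FPKM is a scaled count divided by a length, so only limma used it, as log2(FPKM + 1). Symbols matched 52489 genes, and coordinates are from GENCODE M21 on GRCm38.

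Counts were tested with edgeR 4.0.16 (R 4.3.3): filterByExpr over the 8 groups kept 17079 genes, TMM scaling, 1 robust quasi-likelihood fit over all 40 mice with a mean per group, and Benjamini-Hochberg adjusted p under 0.05. Standard errors are those implied by the F statistic. The p-values rest on the spread between mice within groups, estimated over all 8 groups and not only the 2 groups of 5 compared. A fit of only the groups compared called 3550 genes from 15 h to 5 d and 155 from 5 d to 7 d. CPM values are TMM-scaled, and scores use a prior count of 2. Replicate pairs had correlations of 0.876 to 0.976, and none agreed within sampling noise.

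The members, gene lists (16 of pathways, 14 of cell markers) and named genes were chosen with earlier results of these data known. Named genes are list genes and up to 10 genes per direction and comparison with the largest fold. The latter were called, with groups that do not overlap and a log2 CPM that averages at least 1. They also had to be called in the same direction with the muscle covariate, so keeping that call was a condition of being named. Genes that are not protein coding, and predicted, Riken or antisense symbols, were left out. Some of these genes count in the lists but are not reported by name here. Genes described for their pattern over the 3 times were singled out after their values were seen, as were the limit of 5 on the muscle score and the interferon motif. Alternatives were DESeq2 1.42.0, limma 3.58.1, RLE scaling, no filter, fewer groups, a muscle covariate, a length offset, leaving out each mouse, and the replicate number as a block.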

Additional observations from a re-analysis of the deposited data

Results flagged for a closer look

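In 11 of 198 groups of 5 mice tested, the lowest or highest mouse lay far from the other 4 (its gap to the nearest was over 0.71 of the group's range); chance alone gives about 9.9. At 15 h, mouse 6 had a lymphocyte score of 3.466 (mean log2 CPM of the list), and the nearest mouse was at -0.0212; it also had Cd79a at 9.862 CPM against 0.9753 CPM. Mouse 9 had a cholesterol synthesis score of 4.045 against 3.582, and Me1, which encodes malic enzyme, at 268.3 CPM against 99.79 CPM. At 5 d, Acaca was low in mouse 6, at 90.27 CPM against 137.2 CPM, and Cd79a in mouse 10, at 0.5595 CPM against 0.6952 CPM. At 7 d, mouse 6 had Lcn2 at 10.68 CPM (nearest 2.278), Cxcl13 at 66.25 CPM (nearest 6.459) and Cdk1 at 2.542 CPM (nearest 0.7755). In the same group mouse 10 had a neutrophil and monocyte score of -0.3377 against 0.8133, and mouse 8 had Lep at 5.232 CPM against 38.53 CPM.

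The change over time differed between the Jag and the control antibody, by edgeR's test of the difference, for 17 genes from 15 h to 5 d and 220 genes from 5 d to 7 d. Among the genes named, the differences in log2 change from 5 d to 7 d were 4.48 for Serpina3n, 4.38 for Ffar2, 4.93 for Slc7a10, 6.15 for Chac1 and -1.36 for Postn. None of these 5 was called with the muscle score as a covariate. All 5 lost the call without mouse 6 at 7 d.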

How the results depend on the processing

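Leaving out 1 mouse gave 1164 to 3252 genes called from 15 h to 5 d, 213 to 617 from 5 d to 7 d and 1653 (without mouse 8 at 15 h) to 3206 (without mouse 6 at 7 d) from 15 h to 7 d. The last count was 1970 without mouse 7 at 7 d and 2062 without mouse 7 at 15 h. The difference between antibodies gave 2 (without control mouse 5 at 5 d) to 151 (without control mouse 1 at 5 d) and 5 (without mouse 6 at 7 d) to 968 (without control mouse 2 at 5 d). From 5 d to 7 d, DESeq2 called 1343 genes, a fit without the low-count filter 247 and a fit of only the 2 groups 155. From 15 h to 7 d the fit without the filter called 2057. With only low-muscle mice, an alternative chosen after seeing the data that keeps 2, 5 and 3 mice, the counts were 224, 169 and 199. For the difference between antibodies from 15 h to 5 d, DESeq2 called 500, no filter 6, only mice without hormone 4, only the groups compared 2, the muscle covariate 0, limma 11 and the length offset 91. From 5 d to 7 d these were 975, 63, 36, 2, 0, 15 and 432. The changes of B cell markers from 15 h to 7 d turned positive without mouse 6 at 15 h (Cd79a 0.206, Cd79b 0.609) and with only low-muscle mice (0.334 and 0.292). Over all mice left out in turn these changes lay between -1.82 and 0.206 for Cd79a and -2.11 and 0.609 for Cd79b.

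Mice that share a number at 2 times, taken relative to their groups, had correlations of -0.3375 to 0.42451, with 8 of 15 above 0.1. Because some were below 0.1 and the labels give the numbers no shared origin, they were not taken to pair mice. In 9 of the 15 comparisons, against about 3 by chance, a mouse correlated best with the mouse of its own number. The comparisons reuse the same mice and are not independent, so this is only a hint from the data and not from the design. The highest correlation joined mouse 6 at 7 d and mouse 6 at 15 h, which had the highest muscle scores of their groups (12.3 and 7.95). The part of muscle RNA in it was not tested. With the replicate block 2243, 487 and 2884 genes were called over time, and 51 and 371 for the difference between antibodies. With the block and the length offset these were 2461, 690, 3251, 158 and 493. Except where stated above or in the text, the cause of a moved count was not tested. Counting error weighs most on the lowest values of genes at a few CPM, the cell cycle genes and Slc2a5 among them.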
